A study of Rattus norvegicus with 4 samples.

Results

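Expression of 10 enzymes that build fatty acid chains, lengthen them and place double bonds in them was measured in cultured rat oligodendrocyte precursor cells (OPCs) after silencing of Gpr17. Members were named by their place in the pathway: Acaca and Fasn for de novo synthesis, the elongases Elovl1, Elovl2, Elovl5, Elovl6 and Elovl7, and the desaturases Fads1, Fads2 and Scd. A probe was assigned to a member when its transcript accession belonged to that gene. They are 10 of the 16568 genes with a named probe, and were read by 13 of the 45565 probes that had a value on every array. All 13 probes were well above background on all 4 arrays, so all 10 genes entered the test together with the rest of the 11656 genes tested.

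GPR17 is a receptor found on precursors and on newly formed oligodendrocytes, and the study asked which transcripts move when it is silenced at the onset of differentiation. Cells came from the pooled cortices of Sprague-Dawley rats at postnatal day 2 and were grown for 3 days in basic fibroblast growth factor and platelet-derived growth factor. They were then switched to medium with the thyroid hormone T3 and, at the same time, transfected with 50 nM of a pool of small interfering RNAs. The siGPR17 group (n = 2) received the pool against Gpr17, the siNEG group (n = 2) received a non-targeting pool, and both were lysed 48 h later. Both groups therefore shared the growth factors, the transfection reagent and the T3 medium, and differed in the siRNA. The submitters call the samples of a group independent, but nothing in the labels says whether they came from separate cell preparations, so p-values cover the spread between these samples only.

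Fatty acid synthase joins acetyl and malonyl units into palmitate, and elongases and desaturases of the endoplasmic reticulum then extend and unsaturate the chain. Saturated and monounsaturated very long chains go into the sphingolipids of myelin, including galactosylceramide and sulfatide. Polyunsaturated chains are made from dietary linoleic and alpha-linolenic acid in alternate steps of desaturation and elongation, and end as arachidonic and docosahexaenoic acid in membrane phospholipids. Oligodendrocytes synthesise a large part of the fatty acids of their myelin themselves.

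The polyunsaturated branch carried both of the larger differences among the 10 genes, so the sequences upstream of its 4 genes are shown first. RefSeq windows of 250 bases before the start, on rat build GRCr8, were found for 7 of the 10 members. No window was found for Acaca, Fasn and Elovl6. The bases outside annotated transcribed sequence are printed 5′ to 3′, ordered by the step at which each enzyme first acts, with capitals marking matches to the motifs searched.

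Fads2 (first desaturation), chr1:216172191-216172283, minus strand: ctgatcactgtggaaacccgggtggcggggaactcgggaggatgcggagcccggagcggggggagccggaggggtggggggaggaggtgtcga
Elovl5 (elongation of the first product), chr8:87670914-87671163, plus strand: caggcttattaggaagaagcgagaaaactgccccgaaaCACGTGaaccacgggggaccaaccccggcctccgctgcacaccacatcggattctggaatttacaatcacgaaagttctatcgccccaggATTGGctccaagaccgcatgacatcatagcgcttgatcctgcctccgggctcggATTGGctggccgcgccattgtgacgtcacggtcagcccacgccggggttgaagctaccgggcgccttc
Fads1 (second desaturation), chr1:216252442-216252604, plus strand: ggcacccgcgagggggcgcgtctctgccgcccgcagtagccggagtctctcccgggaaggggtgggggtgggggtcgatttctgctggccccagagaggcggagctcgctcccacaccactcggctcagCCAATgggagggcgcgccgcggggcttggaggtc
Elovl2 (late elongations), chr17:23750100-23750349, plus strand: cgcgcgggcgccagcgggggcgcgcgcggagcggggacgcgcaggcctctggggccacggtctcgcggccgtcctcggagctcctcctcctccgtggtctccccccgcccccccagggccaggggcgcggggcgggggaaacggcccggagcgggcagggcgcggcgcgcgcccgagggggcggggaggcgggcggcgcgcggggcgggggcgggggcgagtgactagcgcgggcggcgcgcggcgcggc

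In all, 3 motifs, none of which contains another, were searched on both strands in the full 250 bases. They were a sterol regulatory element TCACNCCAC, present in 0.974% of all 33469 promoters of the table, the CCAAT box, in 34%, and the E-box CACGTG, in 5.59%. None of the 7 members with a window held the sterol regulatory element in this spelling. Elovl5 held 2 CCAAT boxes and 1 E-box, Fads1 held 1 CCAAT box, and Fads2, Elovl2, Scd, Elovl1 and Elovl7 held no match to any of the 3. A further Elovl2 start, whose window lies mostly in transcribed sequence, held none either. The windows of Scd, Elovl1 and Elovl7 lay wholly in annotated transcribed sequence, and only 93 of the 250 Fads2 bases lay outside it. For these 4 genes a lack of matches therefore says little of the sequence upstream of transcription. The first Elovl2 window was 86.8% G or C, a higher share than in 99.9% of all promoters, whose median was 51.2%. The windows of Fads1, Fads2 and Elovl5 were 73.2%, 68% and 59.2% G or C. A match describes letters only and was not tied to any factor here.

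Gpr17 itself gave signals of 1107 and 1113 on the siNEG arrays and of 652 and 639 on the siGPR17 arrays, a log2 fold change of -0.78 (SE 0.085) with an adjusted p of 0.21 by limma with Benjamini-Hochberg adjustment. Signals here and below are the scanner's processed intensities after each array was scaled to its 75th percentile, in arbitrary units. Fold changes are taken from the same scaled values. All 4 arrays lay on 1 slide in 1 scan, with siNEG in one column and siGPR17 in the next, so slide column and treatment cannot be told apart. Between 26997 and 28244 probes per array were well above background, and the arrays correlated at r of 0.989 to 0.991 across probes. The precursor markers Pdgfra, Olig2 and Sox10 and the myelin gene Mbp were well above background on every array.

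No member passed the study's thresholds of a 1.5-fold change and an adjusted p under 0.07. No gene of the 11656 did so in this fit (percent called 0), so a lack of calls is not particular to these genes. At an unadjusted p under 0.05, Fads2 was higher and Elovl2 lower in siGPR17, which is 2 of 10 against 16.1% of all genes tested. The 2 siGPR17 values lay apart from the 2 siNEG values in 3 of the 10 genes, against 53.2% of all genes. They lay above for Fasn and Fads2, 2 of 10 against 28% of all genes, and below for Elovl2, 1 of 10 against 25.2%. An exact permutation test of 2 against 2 samples cannot go under p = 0.333, so p-values below come from the limma fit across all probes.

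**Figure D1:**
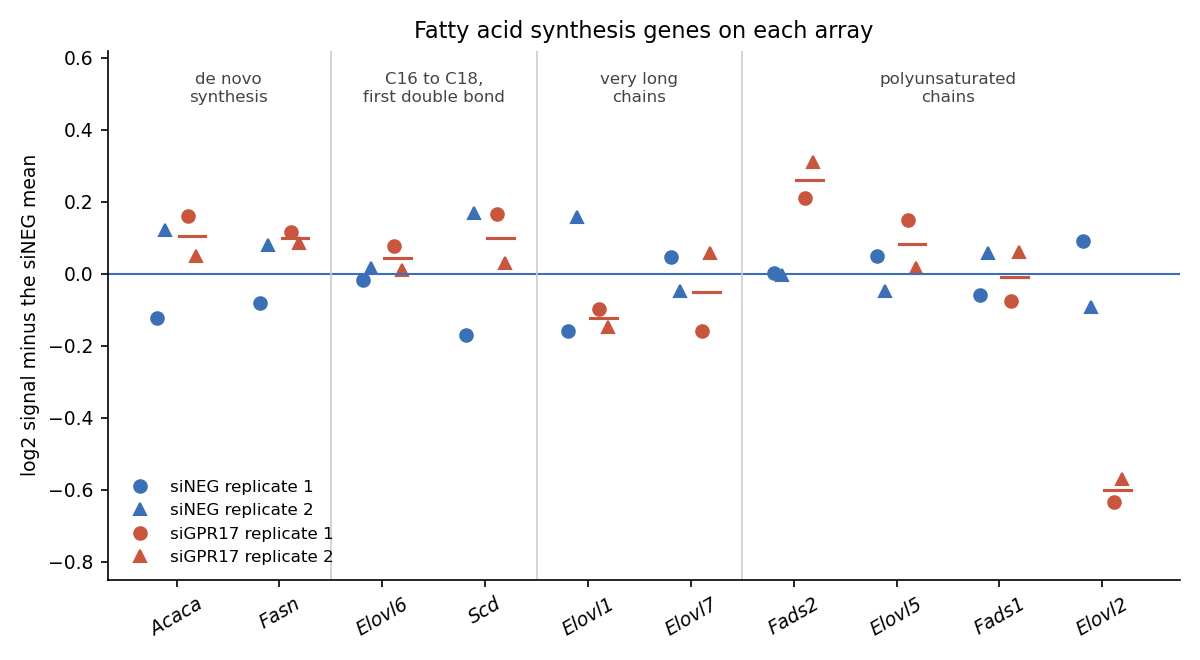
Log2 signal of each gene on each of the 4 arrays, scaled to the array's 75th percentile and expressed relative to the siNEG mean (y axis), with genes grouped by pathway step (x axis); circles and triangles are replicates 1 and 2, and the bar is the siGPR17 mean. The siGPR17 arrays lay 0.60 below the siNEG mean for Elovl2 and 0.26 above it for Fads2, while in 7 genes the groups overlapped.

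Elovl2 had the largest difference among the 10. Elovl2 extends polyunsaturated chains beyond the length that Elovl5 handles and is needed for docosahexaenoic acid. Its probe (A_64_P039576) gave 149 and 131 on the siNEG arrays and 89.9 and 94.0 on the siGPR17 arrays, with means of 139.8 ± 12.7 and 92.0 ± 2.89 (SD, n = 2 each). Both siGPR17 values lay below both siNEG values. The log2 fold change was -0.60 (SE 0.11, 95% interval -0.90 to -0.31), or 1.52-fold lower in siGPR17, and 95.2% of genes tested had a smaller change. The unadjusted p was 0.0046 and the adjusted p 0.21 by limma with Benjamini-Hochberg adjustment. With normexp background correction, which adds an offset of 50 to signals of this size, the log2 fold change was -0.35.

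Elovl2 is also expressed by astrocytes, and these were bulk cultures, in which fewer cells of a type and less RNA per cell cannot be told apart. All 7 listed astrocyte markers were tested, each with a probe well above background on at least 2 arrays. Their summed signal was 9840.2 and 10729.8 in siNEG and 9413 and 9401 in siGPR17. Most of that sum came from Slc1a3 (6964 and 7595 in siNEG, 5672 and 5545 in siGPR17) and S100b (2255 and 2525, then 3338 and 3415), which moved in opposite directions. The sum therefore says little of the dimmer markers. At an unadjusted p under 0.05, Aqp4 (log2 fold change -1.35), Gfap (-0.61) and Slc1a3 (-0.37) were lower and S100b (0.50) was higher. That is 3 of 7 lower and 1 of 7 higher, against 8.71% and 7.41% of all genes tested. Slc1a2, Aldh1l1 and Gja1 were at p of 0.05 or more. Gfap gave 295 and 261 in siNEG against 168 and 198 in siGPR17, and Aqp4 gave 161 and 169 against 72.9 and 57.1. The part of astrocytes in the Elovl2 difference was not tested.

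Fads2, which makes the first desaturation of linoleic and alpha-linolenic acid, differed the other way. Its probe (A_64_P052145) gave 666 and 663 in siNEG and 769 and 824 in siGPR17, so that both siGPR17 values were above both siNEG values. The log2 fold change was 0.26 (SE 0.091, 95% interval 0.012 to 0.51), or 1.20-fold, and 73.9% of genes had a smaller change. The unadjusted p was 0.044 and the adjusted p 0.29 by limma with Benjamini-Hochberg adjustment. The unadjusted p was 0.062 with no filter on dim probes and 0.10 with the replicate number as a block, and it was also 0.05 or more when any 1 array was left out.

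The other enzymes of the branch, Elovl5 and Fads1, had smaller differences. Elovl5, which elongates the product of Fads2, gave 193 and 181 in siNEG and 207 and 189 in siGPR17, a log2 fold change of 0.083 (95% interval -0.20 to 0.36). A dimmer Elovl5 probe gave 0.15 (interval -0.087 to 0.39). Fads1, the second desaturase of the branch, gave 2626 and 2845 against 2595 and 2849, the smallest difference of the 10 at -0.0077 (interval -0.29 to 0.28). The 2 groups overlapped for the brighter Elovl5 probe and for Fads1, and the intervals leave room for differences of about the size measured for Fads2.

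Listed by the step at which each first acts, Fads2, Elovl5, Fads1 and Elovl2 had log2 fold changes of 0.26, 0.083, -0.0077 and -0.60. The balance of Elovl2 to Fads2 was compared within each array, where a scaling factor cancels. The log2 ratio of Elovl2 to Fads2 signal was -2.16 and -2.34 in siNEG and -3.10 and -3.13 in siGPR17, which is a change of -0.86, or 1.82-fold. The log2 ratio of Elovl2 to Elovl5 changed by -0.68, or 1.61-fold, and that of Fads2 to Fads1 by 0.27. These ratios show unequal change between probes of an array and say nothing of which gene moved. They were formed after the single values were known and carry no test.

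**Figure D2:**
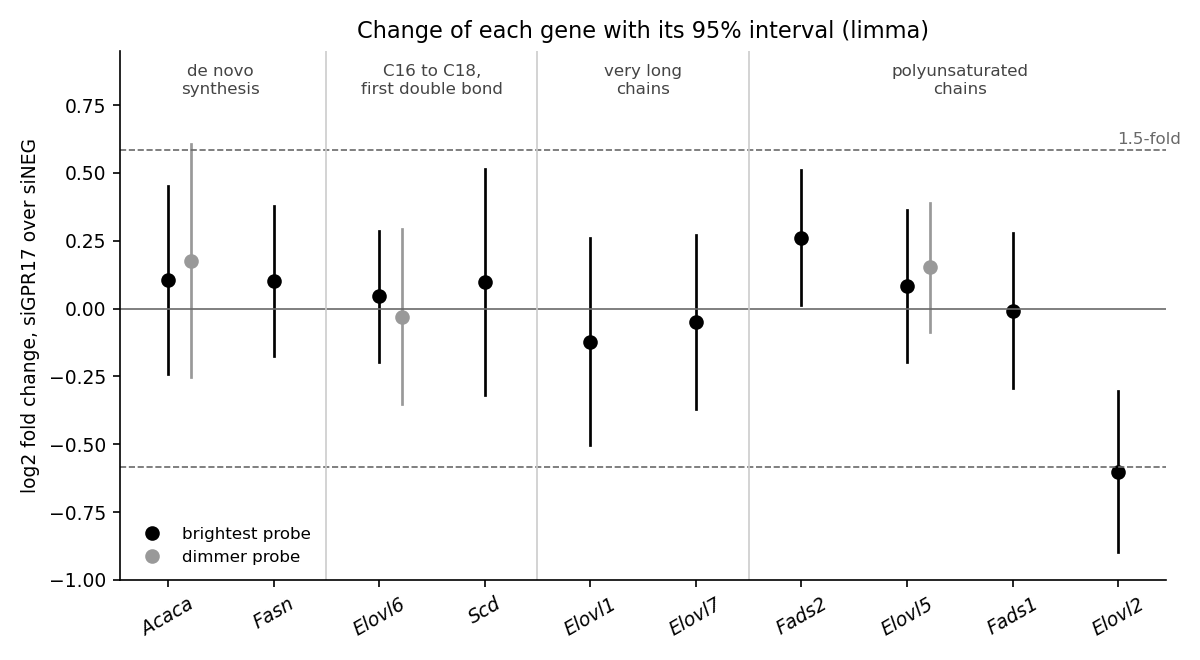
Log2 fold change of siGPR17 over siNEG with its 95% limma interval (y axis) for each gene (x axis), in black for the brightest probe and in grey for a dimmer probe where one was tested; dashed lines mark 1.5-fold. The Elovl2 estimate of -0.60 is the 1 past 1.5-fold, and 9 of the 10 black intervals stay inside the dashed lines. The grey interval of Acaca runs past them, to 0.60.

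The de novo enzymes differed by less than the spread between siNEG replicates. Fasn, which carries out every step from acetyl-CoA and malonyl-CoA to palmitate, gave 24231 and 27054 in siNEG and 27748 and 27162 in siGPR17. Its log2 fold change was 0.10 (SE 0.10, 95% interval -0.18 to 0.38), smaller than the gap of 0.16 between the siNEG arrays, although both siGPR17 arrays were higher. Acaca, the carboxylase that makes malonyl-CoA and sets the pace of synthesis, gave 233 and 276 in siNEG and 283 and 262 in siGPR17, a log2 fold change of 0.11 (interval -0.24 to 0.45). Its groups overlapped. A dimmer Acaca probe gave 0.18 (interval -0.25 to 0.60), and the upper end of that interval was past 1.5-fold.

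The next steps turn palmitate into stearate and oleate. Elovl6, the elongase of palmitate, gave 10563 and 10797 in siNEG and 11271 and 10768 in siGPR17, with a log2 fold change of 0.045 (95% interval -0.20 to 0.29). The dimmer Elovl6 probe gave -0.030 (interval -0.35 to 0.29). Scd, which places the first double bond in stearate and palmitate, gave 4294 and 5437 against 5425 and 4936, a log2 fold change of 0.10 (interval -0.32 to 0.52). The 2 siNEG arrays stood 0.34 apart on the log2 scale for Scd, the widest siNEG gap among the 10 genes, and its interval was accordingly wide.

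The elongases of saturated and monounsaturated very long chains had estimates below 0. Elovl1, which lengthens the chains used for myelin sphingolipids, gave 31634 and 39429 in siNEG and 32990 and 31899 in siGPR17. Its log2 fold change was -0.12 (95% interval -0.50 to 0.26). Elovl7, an elongase of saturated long chains, gave 64.8 and 60.6 against 56.2 and 65.2, with a log2 fold change of -0.050 (interval -0.37 to 0.27). The groups overlapped in both genes.

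By chain length, the median log2 fold change was 0.10 for de novo synthesis, 0.072 for the palmitate elongase and Scd, -0.087 for the very long chain elongases and 0.038 for the polyunsaturated branch. The median of the 10 was 0.064, beside 0.0099 for all genes tested. In all, 6 of the 10 estimates were above 0 and 4 below, against 52% of all genes above 0, and with spike-in scaling Elovl1, Elovl7 and Fads1 were above 0. That scaling moved every gene alike, with the median of all tested probes at 0.14 and that of the 10 genes at 0.20. Relative to the shifted median, Elovl1 (-0.13), Elovl7 (-0.060) and Fads1 (-0.018) were below 0. These relative values follow from the main fit by arithmetic and are no separate check. The 95% interval lay within 1.5-fold in either direction for the brightest probe of 9 of the 10 genes, all but Elovl2, against 67.5% of all genes tested. Without siNEG replicate 1 the median of the 10 was -0.010, and the estimates of Acaca and Scd were below 0. Elovl2, 1 of the 10, had an estimate of 1.5-fold or more, against 5.08% of all genes.

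**Figure D3:**
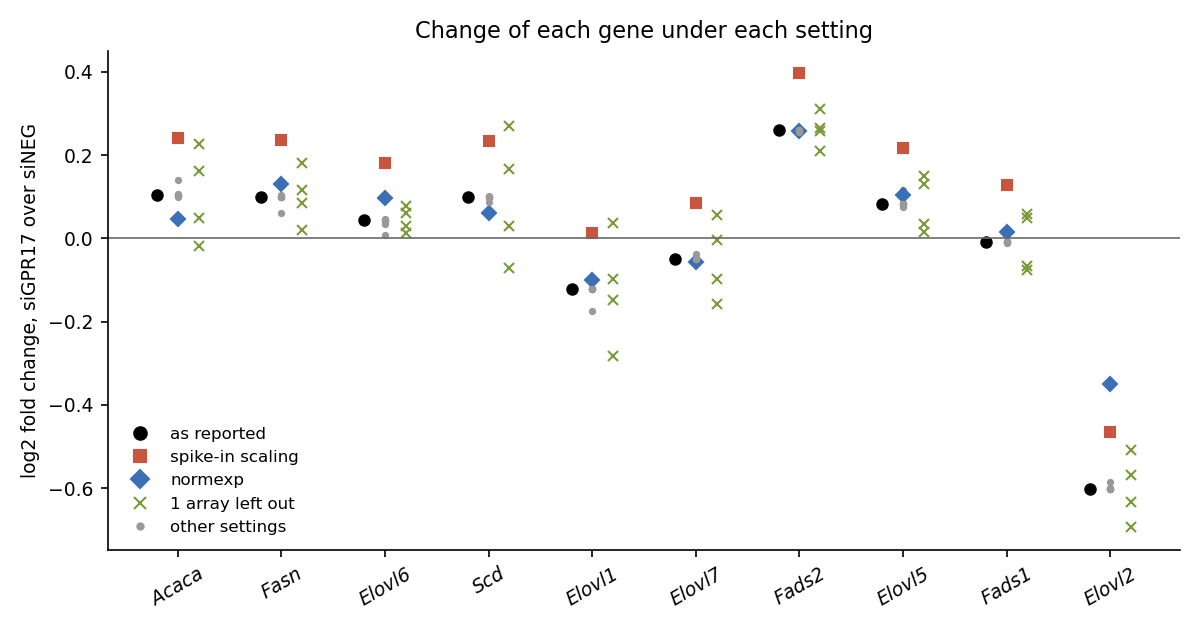
Log2 fold change of siGPR17 over siNEG (y axis) for each gene (x axis) as reported, with spike-in scaling, with normexp correction, with 1 array left out, and under the other settings tried. Elovl2 stayed between -0.69 and -0.35 and Fads2 between 0.21 and 0.40, while Acaca, Scd, Elovl1, Elovl7 and Fads1 crossed 0 under at least 1 setting.

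The replicate spread behind these values was uneven. Gaps between siNEG arrays ran from 0.0069 on the log2 scale for Fads2 to 0.34 for Scd, and gaps between siGPR17 arrays from 0.031 for Fasn to 0.21 for Elovl7. The difference between groups exceeded the gap within each group for Fads2 and Elovl2. Their limma p-values draw on these same gaps, so this is no separate support for them. The share of all genes that did so was not computed.

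The other genes of fatty acid synthesis were read from a list of 37, of which 35 had a probe and 32 were tested. None passed the thresholds. At an unadjusted p under 0.05, 9 were higher in siGPR17, against 7.41% of all genes tested, and 1 was lower, against 8.71%. The count of 10 was 5 with the replicate number as a block, where 11.0% of all genes were at that level, and 3 without siGPR17 replicate 1 (6.58% of all genes) or replicate 2 (6.07%). Their median log2 fold change was 0.072, with 23 estimates above 0 and 9 below. Acacb and Hacd4 were not well above background on any array. Nr1h3, a liver X receptor, was so on 1 array only and was not tested.

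Among the genes that supply acetyl-CoA and NADPH, 3 of 6 had an unadjusted p under 0.05 and all 3 were higher, against 7.41% of all genes tested. Acss2, which makes acetyl-CoA from acetate, gave 1178 and 1338 in siNEG and 1774 and 1841 in siGPR17 (log2 fold change 0.53). Me1, the cytosolic malic enzyme that yields NADPH, had a log2 fold change of 0.33, and Mid1ip1, which binds and activates acetyl-CoA carboxylase, had 0.31. Both siGPR17 arrays were above both siNEG arrays for each of the 3 genes, as they were for 28% of all genes tested.

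Of the 5 other elongases and desaturases tested, 1 had an unadjusted p under 0.05, against 16.1% of all genes tested. It was Fads3, at 332 and 313 in siNEG and 397 and 392 in siGPR17 (log2 fold change 0.29). Fads3, a desaturase of sphingoid bases, stands next to Fads2 on rat chromosome 1, with Fads1 the following protein-coding gene. The log2 fold changes of Fads3, Fads2 and Fads1 were 0.29, 0.26 and -0.0077. Scd2, a second stearoyl-CoA desaturase, gave 0.00093 with its brightest probe (95% interval -0.26 to 0.26) and 0.086 with a dimmer one. Fads6 was dim, at 28.6 and 21.6 in siNEG and 19.3 and 15.9 in siGPR17. Both siGPR17 values lay below both siNEG values, as they did for 25.2% of all genes tested. The Fads6 log2 fold change was -0.50 with an unadjusted limma p of 0.055, but -0.023 with normexp correction. In the elongation cycle, Hacd1, a dehydratase that serves the elongases, had a log2 fold change of 0.26. It was the 1 of 5 partners tested with an unadjusted p under 0.05, against 16.1% of all genes tested.

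Cyb5a, the cytochrome b5 that hands electrons to the desaturases of the endoplasmic reticulum, was the 1 other pathway gene that was lower at an unadjusted p under 0.05. Its brightest probe gave 6418 and 7626 in siNEG and 4245 and 3778 in siGPR17, a log2 fold change of -0.80 (SE 0.13, 95% interval -1.17 to -0.44, limma adjusted p 0.21). Both siGPR17 arrays lay below both siNEG arrays, and a dimmer probe gave -0.64 (interval -0.88 to -0.39). Its reductase partner Cyb5r3 had a log2 fold change of 0.047, with the groups overlapping. Cyb5a passed the thresholds with normexp correction (limma adjusted p 0.032) and with a trended, robust limma fit (adjusted p 0.023).

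Among the 7 regulators tested, 2 were higher at an unadjusted p under 0.05, against 7.41% of all genes tested. Srebf1, which encodes the transcription factor SREBP1, had the larger of these 2 differences. It gave 1012 and 1012 in siNEG and 1648 and 1689 in siGPR17, a log2 fold change of 0.72 (SE 0.085, limma adjusted p 0.21), and its dimmer probe gave 0.55. It too passed the thresholds with normexp correction (limma adjusted p 0.019) and in the trended, robust fit (adjusted p 0.017). Mlx, the partner of the carbohydrate response factor, had a log2 fold change of 0.33. Of the 10 members, 6 were listed as SREBP1 targets (Acaca, Fasn, Scd, Elovl6, Fads1 and Fads2). That list was drawn from the members only, without targets among the other pathway genes, so it does not stand for all SREBP1 targets. Their log2 fold changes ran from -0.0077 to 0.26, and with the brightest probes all 6 intervals lay within 1.5-fold, against 67.5% of all genes tested. The interval of the dimmer Acaca probe did not.

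In the mitochondrial pathway, which makes the chains for lipoic acid, 2 of 6 genes tested were higher at an unadjusted p under 0.05, against 7.41% of all genes tested. They were Oxsm, the condensing enzyme, with a log2 fold change of 0.54, and Cbr4, a subunit of the reductase, with 0.28. No estimate from the brightest probe of the 6 was below 0, but a dimmer Ndufab1 probe gave -0.27 against 0.11 for its brightest, and a dimmer Hsd17b8 probe gave -0.00027.

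**Figure D4:**
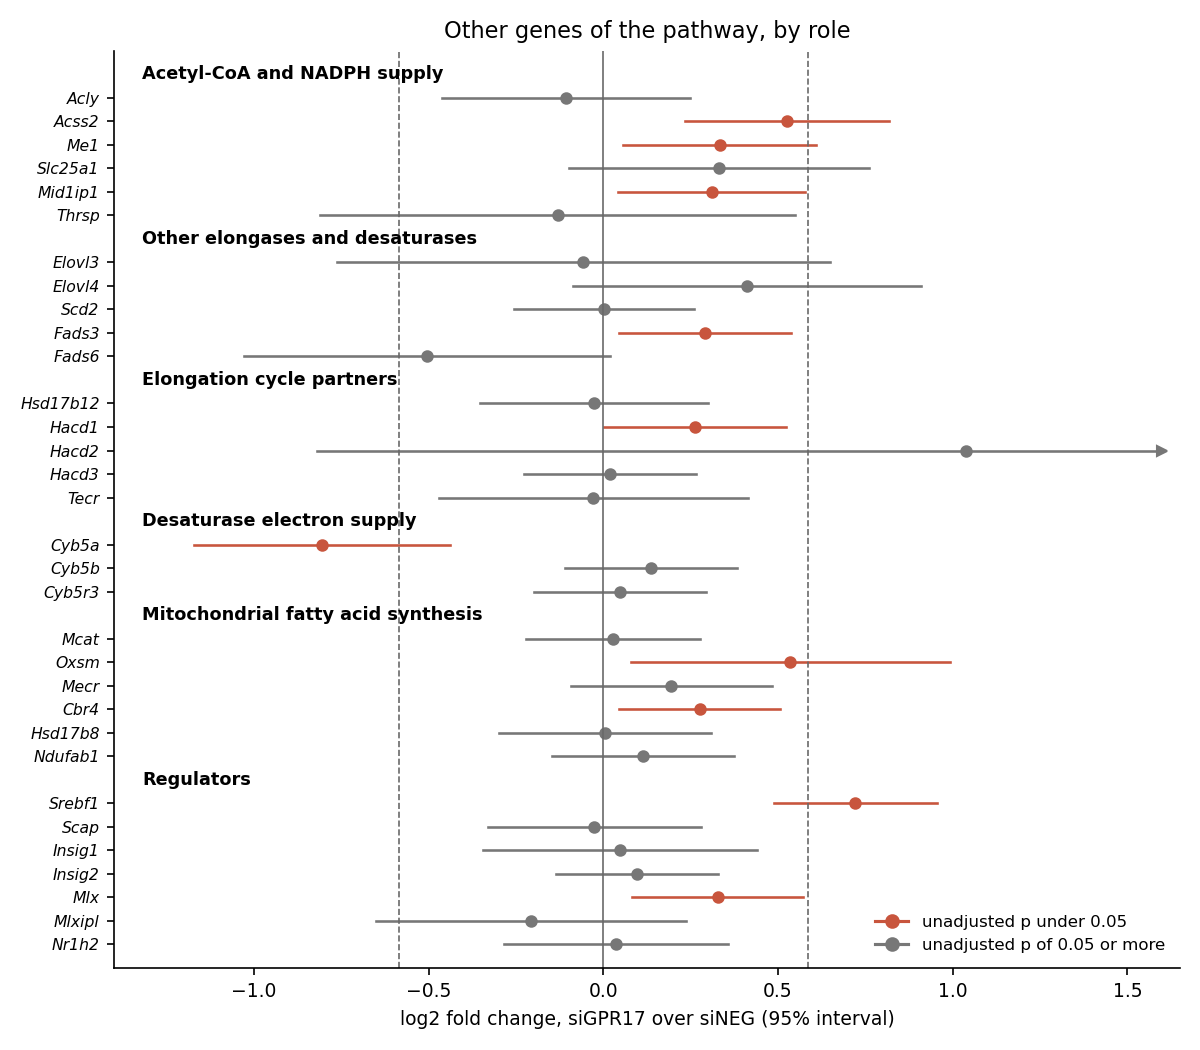
Log2 fold change of siGPR17 over siNEG with its 95% limma interval (x axis) for the 32 other pathway genes tested, by role (rows); red marks an unadjusted p under 0.05, dashed lines mark 1.5-fold, and the arrow marks an interval that runs past the axis. Of the 10 red genes, 9 lie to the right of 0 and Cyb5a, at -0.80, to the left.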

How the data were processed

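RNA of 4 samples (100 ng each) was hybridised to 1-colour Agilent rat arrays. The authors deposited Feature Extraction scanner files (version 10.7.3.1), whose processed signal is an intensity already background-corrected by the scanner software. From it log2 values were taken here, less each array's 75th percentile. Control probes were left out, and 28016 probes well above background on at least 2 arrays were fitted with limma 3.58.1 in R 4.3.3 (lmFit, eBayes, Benjamini-Hochberg), after a test on simulated data. A gene was read from its brightest tested probe. Thresholds were those of the study's methods, a 1.5-fold change and an adjusted p under 0.07. With 2 samples a group, the number of arrays limits the precision. Alternatives were normexp with an offset of 50 (on the spot median, as the files used here hold no spot mean), quantile, median and spike-in scaling, a stricter filter or none, a trended robust fit, other probe rules, the replicate block, the methods' t-test and leaving out each array.

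Symbols came from probe accessions matched to RefSeq tables, which named 21093 of the 45565 probes with a value on every array. All members are named, and of the other pathway genes those with an unadjusted p under 0.05 or, in a list with none, the largest change. Hacd2, Ndufab1, Hsd17b8, Fads6, Scd2, Cyb5r3 and markers beyond Pdgfra, Sox10, Mbp, Gfap, Aqp4, Cx3cr1, Aif1, Pecam1 and Rbfox3 were named after their values were seen. Members and lists were chosen with earlier results of these data known. The array design's genome positions were not used.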

Additional observations from a re-analysis of the deposited data

How the results depend on the processing

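No setting of the 14 tried put a member past the thresholds, although of 11656 genes normexp called 112 and the trended, robust fit 184. Elovl2 and Fads2 kept their direction in all 14. The number of members with an unadjusted p under 0.05 was 2 (16.1% of all genes), 3 with spike-in scaling (21.4%), 1 without a filter on dim probes (10.8%) and 1 with the replicate block (11.0%), and ranged from 1 to 2 with 1 array left out (6.07% to 22.9%). The median of the members was 0.20 with spike-in scaling and ranged from -0.010 to 0.097 with 1 array left out, lowest without siNEG replicate 1. Other pathway genes past the thresholds were 2 with normexp and 2 with the trended, robust fit (Srebf1 and Cyb5a in both). Those with an unadjusted p under 0.05 were 5 with the replicate block and from 3 to 13 with 1 array left out, against 10, beside the same shares of all genes. Directions turned for Elovl1 (0.013), Elovl7 (0.085) and Fads1 (0.13) with spike-in scaling, which shifts all genes alike, and for Fads1 (0.015) with normexp. Relative to the spike-in shift the 3 were at -0.13, -0.060 and -0.018, values that follow from the main fit by arithmetic. With 1 array left out, Acaca ranged from -0.018 to 0.23, Scd from -0.071 to 0.27, Elovl1 from -0.28 to 0.036, Elovl7 from -0.16 to 0.057 and Fads1 from -0.075 to 0.060. The cause of the other turns was not tested. Samples of the same number did not deviate together (r = -0.065), so the number was not taken as a pairing. A fit with the slide as a block was not run, since all arrays lay on 1 slide.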

Other observations

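Some probes of the wider pathway were picked out after their values were seen. Hacd2, a dehydratase of the elongation cycle, gave 28.4 and 23.9 in siNEG and 104 and 27.4 in siGPR17, so its log2 fold change of 1.04 (SE 0.68) rests on siGPR17 replicate 1. Ndufab1, the mitochondrial acyl carrier protein, gave log2 fold changes of 0.11 with its brightest probe and -0.27 with a dimmer one, in opposite directions.

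Among the microglial markers, 6 of 7 were tested, and Aif1 (log2 fold change -0.56) and P2ry12 (-0.32) were lower at an unadjusted p under 0.05. That is 2 of 6, against 8.71% of all genes tested. A dimmer Aif1 probe gave -0.35, with the groups overlapping. The summed signal of the 6 microglial markers tested was 3752 and 2528 in siNEG and 2522 and 2992 in siGPR17. Cx3cr1, the brightest of them, gave 2511 and 1241 in siNEG and 1338 and 1884 in siGPR17 and overlapped between the groups. The neuronal markers summed to 6948 and 8234 in siNEG and 6758 and 6492 in siGPR17, mostly from Map2 and Tubb3. Snap25 (-0.35) and Gad1 (-0.25) were lower at an unadjusted p under 0.05, 2 of the 6 tested against 8.71% of all genes. Rbfox3 was at -0.11. Pecam1 and Cldn5 of endothelium and Dcn, Lum and Pdgfrb of fibroblasts and mural cells were not well above background on any array. Cdh5 of endothelium (log2 fold change 0.33) and Col1a1 (0.43), Col1a2 (0.21) and Acta2 (0.27) of fibroblasts and mural cells were well above it on all 4 arrays, and none of these had an unadjusted p under 0.05. Among the markers of mature oligodendrocytes, Mbp had a log2 fold change of 0.32 and Mog of -0.67. All 6 precursor markers had estimates below 0, where 52% of all genes tested were above 0. Cspg4 (-0.48) was lower at an unadjusted p under 0.05, 1 of 6 against 8.71% of all genes tested.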
